A study of Mus musculus with 12 samples.

Results

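The 10 genes described here encode the surface enzymes and receptors of the adenosine pathway (Nt5e, Entpd1, Adora2a, Adora2b), ligands of inhibitory checkpoint receptors (Cd274, Pdcd1lg2, Lgals9), the cytokines interleukin-10 and TGF-β1 (Il10, Tgfb1), and the inducible cyclooxygenase (Ptgs2). They were taken by symbol from the 24346 symbols of each deposited table, and all 10 were present in all 12 tables. The libraries came from myeloid-derived suppressor cells (MDSCs), immature myeloid cells with suppressive activity toward T cells, sorted by flow cytometry from tumors of Hepa 1-6, a mouse hepatoma cell line. Monocytic M-MDSCs (CD11b+ Ly-6C high Ly-6G-) and polymorphonuclear PMN-MDSCs (CD11b+ Ly-6C intermediate Ly-6G+) gave 2 libraries each for vehicle, for MS-275 and for CXD101. All mice were labelled wild type, and MS-275 and CXD101 are both inhibitors of the class I histone deacetylases HDAC1 to HDAC3. For the M-MDSC experiment, the study's methods give female C57BL/6J mice 6 to 8 weeks old with tumor cells placed in the liver, of which only animals with a high share of MDSCs in blood were treated. The inhibitors were given intraperitoneally at 5 mg/kg daily for 10 days from day 10, in a vehicle of DMSO, PEG300 and PBS that the control mice also received, and tumors were collected on day 21. The schedule of the mice behind the PMN-MDSC libraries is not described there.

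Extracellular ATP released in tumors is degraded to AMP by CD39 (Entpd1), and AMP is converted to adenosine by CD73 (Nt5e). Adenosine acts on immune cells through cyclic AMP-raising receptors, among them those encoded by Adora2a and Adora2b. PD-L1 (Cd274) and PD-L2 (Pdcd1lg2) bind PD-1 on T cells, galectin-9 (Lgals9) binds TIM-3 and other receptors, and interleukin-10, TGF-β1 and cyclooxygenase-2-derived prostaglandin E2 are further routes by which MDSCs are known to restrain lymphocytes.

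Expression was deposited as FPKM, a fragment count divided by transcript length and library size, and the depth estimated from the steps between low values was 8.33 to 10.4 M reads in M-MDSC libraries and 6.93 to 8.06 M in PMN-MDSC libraries. Differences were tested with limma on log2(FPKM + 1) over all genes that reached 1 FPKM in 2 or more libraries of the fit. A gene was called at a Benjamini-Hochberg adjusted p under 0.05 and a fold change above 1.5, and each adjusted p below comes from that test. The labels do not say whether the 2 libraries of a group came from separate mice, so the p-values measure only the spread between these libraries. The log2 differences understate the fold change of genes at low FPKM, so the ratio of group means is also given.

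Itgam, which encodes CD11b of the sort, was at 257 to 895 FPKM in every library, and the Ly-6C gene Ly6c2 was at 1306 to 2447 FPKM in M-MDSCs and 455 to 1677 FPKM in PMN-MDSCs. The inhibitor-treated PMN-MDSC libraries, at 1418 FPKM or more, lay above the vehicle M-MDSC libraries in Ly6c2. Ly6g was not analysed here. Of a list of 10 neutrophil markers, all 10 had a mean above 1 FPKM in every group, including the M-MDSC groups. Their summed level was 11426 to 12081 FPKM in vehicle M-MDSCs, 22041 to 26020 with MS-275 and 22001 to 23199 with CXD101, against 71571 to 97549, 255532 to 279021 and 269827 to 296062 in the corresponding PMN-MDSC groups. The 10 dendritic cell markers summed to lower levels with the inhibitors. Their sum was 46.1 to 60.8 FPKM in vehicle M-MDSCs, 3.87 to 5.46 with MS-275 and 12.2 to 13.9 with CXD101, and in PMN-MDSCs it was 184 to 211, 29.0 to 31.2 and 28.9 to 36.8 FPKM. Cd209a was listed at 0 in all 4 inhibitor-treated M-MDSC libraries. The 10 macrophage markers summed to 196 to 199, 101 to 110 and 156 to 173 FPKM in the 3 M-MDSC groups and to 237 to 255, 139 to 155 and 133 to 143 FPKM in the 3 PMN-MDSC groups, with the Kupffer cell gene Clec4f at 0 in all 12 libraries. The 7 eosinophil markers summed to 152 to 185, 377 to 402 and 367 to 397 FPKM in the M-MDSC groups. In the PMN-MDSC groups they summed to 140 to 149, 154 to 162 and 171 to 180 FPKM. T and NK cell markers summed to at most 3.42 FPKM with Ncr1 and Gzma at 0, and hepatocyte markers to at most 8.77 FPKM with Ttr, Serpina1a, Fgb and Krt8 at 0. In sorted bulk populations, fewer cells of a type and less RNA per cell cannot be told apart. The 8 endothelial and stromal markers summed to 12 to 14.2, 39.5 to 43.0 and 31.3 to 31.7 FPKM in M-MDSCs and to 36.1 to 41.6, 94.7 to 99.0 and 82.5 to 84.7 FPKM in PMN-MDSCs, with Col1a2 at 0 in all 12 libraries. The 6 monocyte markers summed to 1685 to 1757, 2892 to 2913 and 2423 to 2508 FPKM, and to 690 to 766, 1640 to 1843 and 1562 to 1775 FPKM. The 6 basophil and mast cell markers summed to 9.84 to 14, 19.0 to 27.8 and 15.1 to 20.8 FPKM in M-MDSCs and to 71.5 to 96.0, 28.5 to 32.4 and 77.4 to 78.1 FPKM in PMN-MDSCs. These sums move with treatment and subset, and their part in the results was not tested.

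In vehicle-treated mice, PMN-MDSCs held more mRNA of the adenosine enzyme genes and of both PD-1 ligand genes than M-MDSCs. Of the 9 members tested, 6 were called higher in PMN-MDSCs and 0 lower, where 17.2% of the 11662 genes tested were called higher, 16.8% lower and 34.0% in either direction. The median log2 difference of the 9 was 0.75, beside -0.01 over all genes tested. Nt5e, Pdcd1lg2 and Ptgs2 were below 1 FPKM in both vehicle M-MDSC libraries and entered the fit through other groups, so this count and median describe the members that passed and support nothing further. Nt5e was higher by a log2 difference of 3.55 (SE 0.13, adjusted p = 8.34e-09), Pdcd1lg2 by 2.67 (SE 0.11, adjusted p = 1.49e-08), Entpd1 by 2.41 (SE 0.10, adjusted p = 1.95e-08) and Cd274 by 2.13 (SE 0.08, adjusted p = 8.34e-09). Ptgs2 and Adora2a passed at low levels and are described with their values. Lgals9 and Tgfb1 showed differences of 0.10 (95% interval -0.05 to 0.26) and 0.04 (-0.16 to 0.23).

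**Figure D1:**
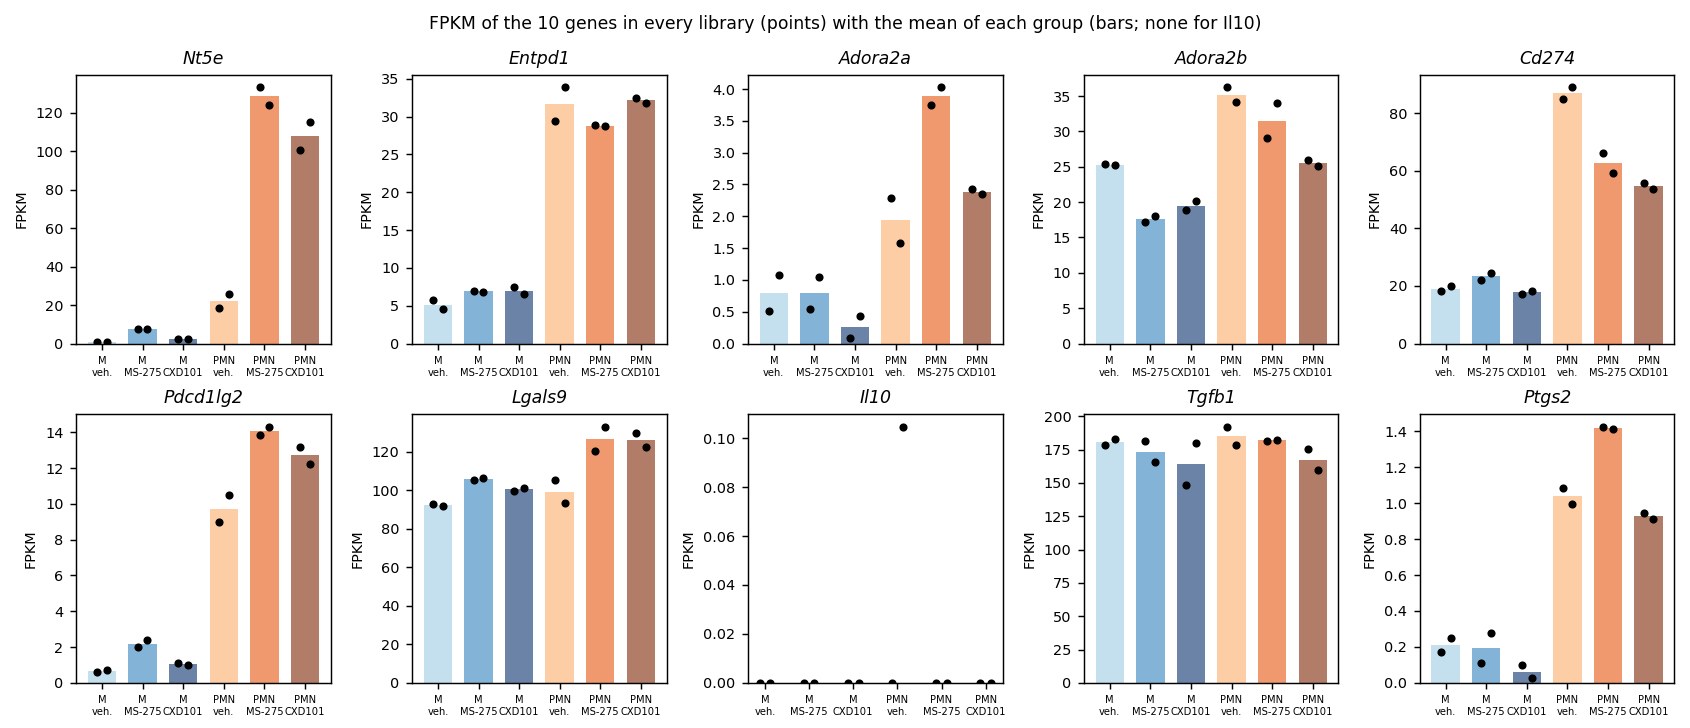
FPKM (y axis, linear, a separate scale for each gene) of the 10 genes in the 6 groups on the x axis, with M for M-MDSC, PMN for PMN-MDSC and veh. for vehicle. Points are the 2 libraries of a group and bars their mean, with no bar for Il10, which was above 0 in 1 library. Nt5e, Entpd1, Adora2a, Cd274, Pdcd1lg2 and Ptgs2 are higher in every PMN-MDSC library than in every M-MDSC library. Tgfb1 lies between 148 and 192 FPKM throughout.

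Nt5e, on chromosome 9 (GRCm38, chr9:88327197-88372092, plus strand), encodes CD73, the ectonucleotidase that forms adenosine from AMP, and was called higher with both inhibitors in both subsets. In M-MDSCs it was at 0.986 and 0.882 FPKM with vehicle, 7.76 and 7.61 with MS-275, and 2.53 and 2.13 with CXD101. In PMN-MDSCs it was at 18.4 and 25.5 FPKM with vehicle, 133 and 124 with MS-275, and 101 and 115 with CXD101. No 2 of the 6 groups overlapped, and their order ran from PMN-MDSCs with MS-275 at the top to vehicle M-MDSCs at the bottom. These levels rest on about 31.9 to 37.1 reads in vehicle M-MDSCs and up to about 3689 in PMN-MDSCs.

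Nt5e was below 1 FPKM in both vehicle M-MDSC libraries and entered the M-MDSC fit only through inhibitor-treated libraries. A difference there was therefore part of being tested. In M-MDSCs the Nt5e difference was 2.17 with MS-275 (SE 0.12, adjusted p = 7.64e-06), a ratio of means of 8.22. With CXD101 it was 0.78 (SE 0.12, adjusted p = 0.00305), a ratio of 2.5, and 1.23 with a pseudocount of 0.1. MS-275 exceeded CXD101 by 1.38 (SE 0.12, adjusted p = 0.000610) at the same dose and schedule. In PMN-MDSCs the difference was 2.51 with MS-275 (SE 0.14, adjusted p = 1.11e-05), a ratio of 5.85, and 2.26 with CXD101 (SE 0.14, adjusted p = 2.71e-05), a ratio of 4.91. There the inhibitors differed by 0.25 (95% interval -0.07 to 0.58, adjusted p = 0.432), which did not pass. The CXD101 difference was larger in PMN-MDSCs than in M-MDSCs by 1.48 (SE 0.19, adjusted p = 0.000471, interaction term). For MS-275 the same term was 0.35 (SE 0.19, adjusted p = 0.192), and it turned to -0.35 with a pseudocount of 0.1. The neutrophil, monocyte, eosinophil, and endothelial and stromal marker sums given above were also higher with both inhibitors in both subsets. Those sums rest mostly on S100a8 and S100a9, on Ly6c2, on Ear2, and on Pecam1 and Acta2, and other listed markers moved either way. With MS-275 in M-MDSCs, Mmp8 rose from 117 and 107 to 768 and 801 FPKM, and Ltf fell from 73.3 and 102 to 29.1 and 31.8. With MS-275 in PMN-MDSCs, Fn1 rose from 48.1 and 49.0 to 58.9 and 68.1 FPKM, and Csf1r fell from 160 and 145 to 59.9 and 64.1. The part of these markers in the Nt5e differences was not tested.

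The stretch around the RefSeq start of Nt5e, 250 bases before it and 50 from it on, is shown because this gene gave the largest inhibitor differences among the members (RefSeq, GRCm38.p6, chr9:88327359-88327658, plus strand). This window lies within the gene as placed by GENCODE (chr9:88327197-88372092), whose start is upstream of the RefSeq one. Which start these cells use was not tested. The capitals mark GGGCGG, the core of the GC box bound by Sp1-family factors, or its reverse complement CCGCCC.
Nt5e: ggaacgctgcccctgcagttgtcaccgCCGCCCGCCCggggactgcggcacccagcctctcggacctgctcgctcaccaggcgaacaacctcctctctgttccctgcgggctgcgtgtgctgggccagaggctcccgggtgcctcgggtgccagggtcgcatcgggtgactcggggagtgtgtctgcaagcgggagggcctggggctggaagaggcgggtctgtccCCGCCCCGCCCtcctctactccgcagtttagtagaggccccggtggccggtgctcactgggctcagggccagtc
The window held 4 GC boxes, counting overlapping matches, and 23 CpG dinucleotides at 71.0% G+C, where the median over 32851 windows of the same length was 7 CpG and 52.67% G+C. A GC box on either strand was found in 35.66% of those windows, so its presence is common.

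Entpd1 (chr19:40612366-40741602, plus strand), encoding CD39, was high in PMN-MDSCs and did not pass with either inhibitor. It was at 5.71 and 4.62 FPKM in vehicle M-MDSCs, 7.01 and 6.80 with MS-275, and 7.52 and 6.50 with CXD101. The PMN-MDSC libraries held 29.4 and 33.9 FPKM with vehicle, 28.9 and 28.8 with MS-275, and 32.5 and 31.9 with CXD101. The inhibitor-treated M-MDSC libraries were all above the vehicle ones, by 0.36 with MS-275 (adjusted p = 0.0360) and 0.38 with CXD101 (adjusted p = 0.0524), both under the fold limit. In PMN-MDSCs the differences were -0.13 (95% interval -0.33 to 0.07) and 0.03 (-0.17 to 0.23). The response to MS-275 differed between the subsets by -0.49 (adjusted p = 0.0284), also under the fold limit. An annotated sense-intronic RNA and pseudogenes overlap this gene, and whether their reads were counted with it is not stated.

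Adora2b (chr11:62248984-62266453, plus strand), encoding a low-affinity adenosine receptor, was at 25.4 and 25.2 FPKM in vehicle M-MDSCs, 17.2 and 18 with MS-275, and 18.8 and 20.2 with CXD101. Its PMN-MDSC level was 36.2 and 34.1 FPKM with vehicle, 29.1 and 34.0 with MS-275, and 25.9 and 25.1 with CXD101. Every inhibitor-treated library lay below the vehicle libraries of its subset, although none of the 4 differences reached the fold limit. They were -0.50 with MS-275 (adjusted p = 0.000871) and -0.36 with CXD101 (adjusted p = 0.00992) in M-MDSCs, and -0.16 (adjusted p = 0.185) and -0.45 (adjusted p = 0.00583) in PMN-MDSCs.

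Adora2a (chr10:75316877-75334784, plus strand), encoding the higher-affinity receptor of this pair, was low throughout. In M-MDSCs it was at 0.515 and 1.07 FPKM with vehicle, 0.538 and 1.04 with MS-275, and 0.0809 and 0.428 with CXD101, about 1.95 to 25.3 reads a library. PMN-MDSCs had 2.29 and 1.59 FPKM with vehicle, 3.76 and 4.03 with MS-275, and 2.43 and 2.35 with CXD101. It was called higher with MS-275 in PMN-MDSCs, by 0.74 (SE 0.16, adjusted p = 0.00507). Without the second PMN-MDSC vehicle library this was 0.57, under the fold limit. The PMN-MDSC CXD101 difference was 0.21 (adjusted p = 0.294), and the inhibitors differed by 0.53 (95% interval 0.17 to 0.89, adjusted p = 0.179). Between vehicle subsets the difference was 0.72 (adjusted p = 0.0114) and 1.24 with a pseudocount of 0.1, and the call was lost without the first M-MDSC vehicle library (0.49) or the first PMN-MDSC one (0.55).

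Cd274 and Pdcd1lg2 encode the PD-1 ligands and lie beside each other on chromosome 19 (chr19:29367455-29388095 and chr19:29410919-29471161, both plus strand). Their differences from vehicle had opposite signs in PMN-MDSCs with either inhibitor. Cd274 was at 84.7 and 88.9 FPKM with vehicle, 66.2 and 59.2 with MS-275, and 55.9 and 53.6 with CXD101 in PMN-MDSCs. In M-MDSCs it was at 18.2 and 19.9 FPKM with vehicle, 22.1 and 24.5 with MS-275, and 17.3 and 18.2 with CXD101. In PMN-MDSCs both inhibitor groups lay below vehicle, while in M-MDSCs the MS-275 libraries lay above both other groups.

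Cd274 fell with CXD101 in PMN-MDSCs by 0.66 on the log2 scale (SE 0.08, adjusted p = 0.000437), a ratio of means of 0.630. With MS-275 the difference was -0.46 (SE 0.08, adjusted p = 0.00154), under the fold limit, and the inhibitors differed by 0.19 (95% interval 0.01 to 0.37, adjusted p = 0.290). In M-MDSCs the difference was 0.28 with MS-275 (adjusted p = 0.0259) and -0.10 with CXD101 (95% interval -0.29 to 0.10). The response to MS-275 differed between the subsets by -0.74 (SE 0.11, adjusted p = 0.000829) and that to CXD101 by -0.56 (SE 0.11, adjusted p = 0.00512), the latter under the fold limit. Lower sums of the dendritic cell and macrophage markers were seen with both inhibitors in both subsets, as given above. Those sums rest mostly on Ccl17 and Ccl22, and on Adgre1, Mrc1 and Trem2, and other listed markers moved either way. With MS-275 in PMN-MDSCs, Mrc1 fell from 50.6 and 48.0 to 3.32 and 2.96 FPKM, and Apoe rose from 13.8 and 16.4 to 45.2 and 51.1. With MS-275 in M-MDSCs, Adgre1 rose from 38.9 and 41.5 to 58.4 and 53.9 FPKM. The part of these markers in the Cd274 differences was not tested.

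Pdcd1lg2 was at 0.622 and 0.742 FPKM in vehicle M-MDSCs, 2.01 and 2.37 with MS-275, and 1.12 and 0.993 with CXD101. In PMN-MDSCs the level was 8.96 and 10.50 FPKM with vehicle, 13.8 and 14.3 with MS-275, and 13.2 and 12.3 with CXD101. No 2 of the 6 groups overlapped. Pdcd1lg2 entered the M-MDSC fit only through inhibitor-treated libraries, so a difference there was part of being tested. In M-MDSCs it was called higher with MS-275, by 0.92 (SE 0.14, adjusted p = 0.00122), a ratio of means of 3.21, and by 1.55 with a pseudocount of 0.1 and 0.60 after quantile normalization. The CXD101 difference there was 0.29 (adjusted p = 0.182). MS-275 exceeded CXD101 by 0.63 (adjusted p = 0.0252), a call that was lost when any 1 of the 4 inhibitor libraries was left out (0.55 to 0.71) and after quantile normalization (0.52). In PMN-MDSCs the differences were 0.49 with MS-275 (adjusted p = 0.00536) and 0.36 with CXD101 (adjusted p = 0.0264), both under the fold limit. Both genes have an annotated antisense transcript on the opposite strand, and whether the counting used strand is not stated.

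The windows of these neighbours are printed from the same table, with GC boxes in capitals as above, because these adjacent genes differed in direction in PMN-MDSCs (Cd274, chr19:29367188-29367487, and Pdcd1lg2, chr19:29410669-29410968, both plus strand).
Cd274: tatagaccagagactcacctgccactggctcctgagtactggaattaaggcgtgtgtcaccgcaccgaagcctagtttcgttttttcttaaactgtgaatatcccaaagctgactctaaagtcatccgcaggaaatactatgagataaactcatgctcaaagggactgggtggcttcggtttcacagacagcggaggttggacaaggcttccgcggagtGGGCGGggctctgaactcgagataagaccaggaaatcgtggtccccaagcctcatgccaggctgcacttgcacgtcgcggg
Pdcd1lg2: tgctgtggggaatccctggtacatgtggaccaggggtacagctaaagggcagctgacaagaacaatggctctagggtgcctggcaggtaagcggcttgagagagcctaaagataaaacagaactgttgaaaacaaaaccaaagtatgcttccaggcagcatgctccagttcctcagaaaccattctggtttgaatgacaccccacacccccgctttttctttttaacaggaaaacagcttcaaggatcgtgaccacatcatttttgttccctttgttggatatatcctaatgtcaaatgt
The Cd274 window held 15 CpG dinucleotides at 52.7% G+C, with 1 GC box and 1 match to ACGTG, the core of the hypoxia response element, which 19.62% of all windows hold on either strand. The Pdcd1lg2 window held 3 CpG at 46.0% G+C and no GC box. Neither window matched TTCNNNGAA, the STAT element, or TGACG, the core of the cyclic AMP response element, which 8.298% and 20.81% of windows hold.

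Lgals9 (chr11:78962974-78984946, minus strand), encoding galectin-9, was abundant in both subsets and was called in no comparison. It was at 92.7 and 91.7 FPKM in vehicle M-MDSCs, 105 and 106 with MS-275, and 99.5 and 101 with CXD101. The PMN-MDSC values were 105 and 93.2 FPKM with vehicle, 120 and 133 with MS-275, and 130 and 123 with CXD101. Inhibitor-treated libraries lay above the vehicle libraries of the same subset. The differences were 0.20 (adjusted p = 0.0164) and 0.12 (adjusted p = 0.135) in M-MDSCs and 0.35 with either inhibitor in PMN-MDSCs (adjusted p = 0.00863 with MS-275 and 0.0112 with CXD101), none past the fold limit.

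Tgfb1 (chr7:25687002-25705077, plus strand), encoding TGF-β1, had the highest levels of the 10 genes in the M-MDSC and PMN-MDSC libraries alike, and passed in no comparison. It was at 178 and 183 FPKM in vehicle M-MDSCs, 182 and 165 with MS-275, and 148 and 180 with CXD101. Among PMN-MDSC libraries it stood at 192 and 179 FPKM with vehicle, 182 and 182 with MS-275, and 175 and 159 with CXD101. Each group overlapped the next in the order of levels. Both PMN-MDSC libraries with CXD101 lay below both vehicle ones, with a difference of -0.15 (95% interval -0.31 to 0.02, adjusted p = 0.124). The 4 inhibitor differences lay between -0.15 and -0.03, and their 95% intervals lay within -0.35 and 0.15.

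Il10 (chr1:131019845-131024974, plus strand), encoding interleukin-10, was listed at 0 in 11 libraries and at 0.105 FPKM in the second PMN-MDSC vehicle library, about 1.07 reads. A count of 0 allows up to 3 reads, which corresponds to 0.219 to 0.330 FPKM across the libraries, for counting error only. No inhibitor difference could be measured at this depth.

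Ptgs2 (chr1:150100031-150108227, plus strand), encoding cyclooxygenase-2, the inducible enzyme that starts prostaglandin synthesis, was at 0.169 and 0.252 FPKM in vehicle M-MDSCs, 0.109 and 0.276 with MS-275, and 0.0986 and 0.0261 with CXD101. It did not reach the minimum level for testing in M-MDSCs. In the PMN-MDSC groups it was at 1.08 and 0.997 FPKM with vehicle, 1.43 and 1.42 with MS-275, and 0.947 and 0.911 with CXD101, and it lay below 1.5 FPKM in every library. Since it reached 1 FPKM in PMN-MDSC libraries alone, it was tested between the subsets only through the subset where it was higher. That difference was 0.75 (SE 0.14, adjusted p = 0.000629), a ratio of means of 4.94, and 1.89 with a pseudocount of 0.1. In PMN-MDSCs the inhibitor differences were 0.25 (95% interval -0.10 to 0.60) and -0.08 (-0.43 to 0.27).

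Counted over the members, 2 of the 8 tested in M-MDSCs were called with MS-275 (Nt5e and Pdcd1lg2, both higher), where 17.5% of the 11078 genes tested were called, 10.1% higher and 7.32% lower. With CXD101 1 of 8 was called (Nt5e, higher), against 8.13% of all genes, or 5.14% in that direction. Between the inhibitors 2 of 8 were called, both higher with MS-275, against 4.40% of all genes, 3.22% higher and 1.17% lower. In PMN-MDSCs 2 of the 9 members tested were called with MS-275 (Nt5e and Adora2a, both higher), where 28.7% of 11184 genes were called, 14.6% higher and 14.2% lower. With CXD101 2 of 9 were called (Nt5e higher, Cd274 lower), where 21.4% of all genes were, 11.9% higher and 9.54% lower. Between the inhibitors 0 of 9 were called by limma in PMN-MDSCs, against 0.805% of all genes (0.465% higher and 0.340% lower). The lowest adjusted p of a member there was 0.179, for Adora2a. The difference in response between subsets was called for 1 of 9 members with MS-275 (Cd274, lower), against 18.1% of all genes, 8.65% higher and 9.48% lower. With CXD101 it was called for 1 of 9 (Nt5e, higher), against 13.9%, 7.31% higher and 6.59% lower. Over all genes the MS-275 term was higher for 1009 and lower for 1106, or 47.7% higher. Scaled to a sum without S100a8 and S100a9, it was higher for 723 and lower for 1475, or 32.9% higher, with the median of all genes moving from 0.02 to -0.09 and the Cd274 term to -0.86. With so few members, these shares do not set them apart from the other genes. Il10 was not tested, nor Ptgs2 in M-MDSCs, and Nt5e and Pdcd1lg2 passed the filter in M-MDSCs only through inhibitor-treated libraries, so a difference there was part of being tested.

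**Figure D2:**
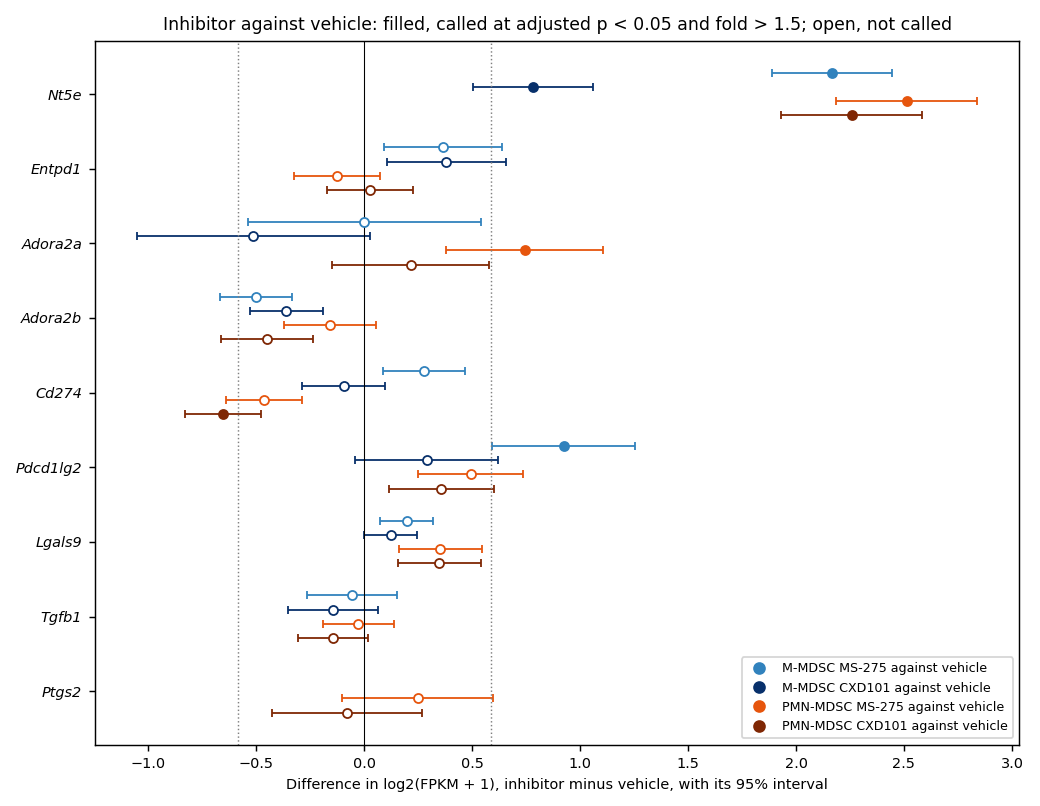
Difference in log2(FPKM + 1) between inhibitor and vehicle (x axis) for the 9 members tested in at least 1 subset (y axis), by subset and inhibitor in 4 colors. Bars are 95% intervals from limma, filled points were called, open points were not, and dotted lines mark a 1.5-fold change. Nt5e lies to the right of the upper line in all 4 comparisons, and Cd274 is called lower with CXD101 in PMN-MDSCs.

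Other genes of the same pathways were read from lists. Of the adenosine and ATP handling genes tested, 7 of 24 were called higher and 6 lower with MS-275 in M-MDSCs, where 10.1% of all genes were called higher and 7.32% lower, and 1 and 5 with CXD101 (5.14% and 3.0% of all genes). In PMN-MDSCs 6 of 22 were higher and 6 lower with MS-275 (14.6% and 14.2%), and 6 and 4 with CXD101 (11.9% and 9.54%). Cd38 and its relative Bst1 encode ectoenzymes that consume NAD, a route to adenosine that bypasses ATP. In M-MDSCs Cd38 fell from a mean of 18.7 FPKM to 2.67 with MS-275 (log2 difference -2.42, adjusted p = 1.81e-06) and to 7.30 with CXD101 (-1.25, adjusted p = 0.000133). Bst1 fell there from 30.7 FPKM to 6.35 (-2.11, adjusted p = 3.80e-06) and 18.3 (-0.71, adjusted p = 0.00167). In PMN-MDSCs Cd38 fell from 34.0 to 11.4 FPKM with MS-275 (-1.49, adjusted p = 1.44e-05).

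Nucleotide receptor genes were among those that fell. The UDP receptor gene P2ry6 fell with MS-275 by 1.19 in M-MDSCs (mean 12.9 to 5.12 FPKM, adjusted p = 0.000418) and by 1.88 in PMN-MDSCs (24.4 to 5.87 FPKM, adjusted p = 2.37e-05), and with CXD101 by 1.65 in PMN-MDSCs (to 7.08 FPKM, adjusted p = 6.60e-05). P2rx7, encoding the ATP-gated channel P2X7, fell in PMN-MDSCs from 8.57 to 2.60 FPKM with MS-275 (-1.43, adjusted p = 0.000570) and to 2.24 with CXD101 (-1.56, adjusted p = 0.000537). Higher levels were seen for Entpd3, an ectonucleotidase related to CD39, in PMN-MDSCs (0.824 FPKM with vehicle, 7.88 with MS-275, 6.28 with CXD101) and for the A3 receptor gene Adora3 with MS-275 in M-MDSCs (2.19 to 5.84 FPKM, log2 difference 1.09, adjusted p = 0.00188). The Entpd3 differences were 2.28 (adjusted p = 7.37e-06) and 2.0 (adjusted p = 2.09e-05), and this gene passed the filter in PMN-MDSCs through the inhibitor-treated libraries.

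Of the checkpoint ligand and receptor genes, 3 of 23 were called higher and 2 lower with MS-275 in M-MDSCs, against 10.1% and 7.32% of all genes, and 1 and 0 with CXD101, against 5.14% and 3.0%. In PMN-MDSCs 2 of 22 were higher and 1 lower with MS-275, against 14.6% and 14.2%, and 1 and 0 with CXD101, against 11.9% and 9.54%. The total was 5 with MS-275 in M-MDSCs and 3 without the second vehicle or the first MS-275 library. With CXD101 it was 1 in M-MDSCs, 2 without the first vehicle library and 0 without the second vehicle or second CXD101 library. With CXD101 in PMN-MDSCs it was 1, 2 without the first vehicle or second CXD101 library and 3 without the second vehicle library. Nectin2, encoding a ligand of TIGIT and DNAM-1, was called in all 4 comparisons. Its mean was 4.04 FPKM in vehicle M-MDSCs, 10.1 with MS-275 and 6.69 with CXD101, and 3.13, 12.4 and 9.88 FPKM in the PMN-MDSC groups. The differences were 1.16 (adjusted p = 0.000552), 0.63 (adjusted p = 0.0217), 1.70 (adjusted p = 1.25e-05) and 1.40 (adjusted p = 4.80e-05) in that order. The second of these was lost when the second M-MDSC vehicle library (0.39) or either CXD101 library (0.61 and 0.65) was left out, with no filter and after quantile normalization (0.58). Fgl2, encoding a fibrinogen-like ligand of an inhibitory Fc receptor, was higher with MS-275 in M-MDSCs by 0.98 (7.24 to 15.2 FPKM, adjusted p = 0.000311).

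Of the IL-10 and TGF-β genes, 5 of 26 were called higher and 4 lower with MS-275 in M-MDSCs, against 10.1% and 7.32% of all genes, and 4 and 3 with CXD101, against 5.14% and 3.0%. In PMN-MDSCs 6 of 27 were higher and 4 lower with MS-275, against 14.6% and 14.2%, and 4 and 4 with CXD101, against 11.9% and 9.54%. Thbs1, encoding thrombospondin-1, an activator of latent TGF-β, rose in all 4 comparisons. Its mean was 513 FPKM in vehicle M-MDSCs, 1721 with MS-275 and 1073 with CXD101 (differences 1.76 and 1.07, adjusted p = 1.42e-05 and 0.000469). In PMN-MDSCs it was 1100 FPKM with vehicle, 3944 with MS-275 and 2629 with CXD101 (1.84 and 1.26, adjusted p = 2.32e-06 and 1.37e-05). Tgfbi, a TGF-β-induced matrix protein gene, fell instead, with MS-275 by 1.45 in M-MDSCs (202 to 73.2 FPKM, adjusted p = 3.83e-06) and by 1.18 in PMN-MDSCs (232 to 102 FPKM, adjusted p = 6.92e-06).

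Ltbp3, encoding a latent TGF-β binding protein, was higher with MS-275 in M-MDSCs (1.13 to 7.01 FPKM, difference 1.91, adjusted p = 2.24e-05). Il27, encoding a subunit of the IL-10-inducing cytokine interleukin-27, was higher in PMN-MDSCs with MS-275 (2.39 to 13.5 FPKM, 2.1, adjusted p = 0.000323) and with CXD101 (to 11.4 FPKM, 1.86, adjusted p = 0.000844). Maf, encoding a transcription factor known to drive Il10, fell in PMN-MDSCs from 7.71 FPKM to 1.36 with MS-275 (-1.89, adjusted p = 6.29e-05) and to 1.55 with CXD101 (-1.77, adjusted p = 0.000140). The ligand gene Tgfb1 itself did not pass in any of these comparisons, as described above.

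The prostaglandin E2 list also holds genes of other lipid mediators, among them Pla2g7 and Tbxas1. Of its genes, 4 of 17 were called higher and 2 lower with MS-275 in M-MDSCs, against 10.1% and 7.32% of all genes. With CXD101 the numbers there were 0 and 1, against 5.14% and 3.0%. In PMN-MDSCs 2 of 16 were higher and 3 lower with MS-275, against 14.6% and 14.2%, and 1 and 1 with CXD101, against 11.9% and 9.54%. The total was 5 with MS-275 in PMN-MDSCs and 3 without the second MS-275 library, and 1 with CXD101 in M-MDSCs and 2 without the first vehicle library. Pla2g7, encoding platelet-activating factor acetylhydrolase, was higher in PMN-MDSCs (61.4 FPKM with vehicle, 143 with MS-275, 113 with CXD101, differences 1.21 and 0.87, adjusted p = 2.25e-05 and 0.000159). Tbxas1, encoding thromboxane synthase, fell there from 59.3 FPKM to 34.7 (-0.76, adjusted p = 0.000204) and 36.9 (-0.67, adjusted p = 0.000552). Ptgr1, whose product inactivates prostaglandins and leukotriene B4, was higher with MS-275 in M-MDSCs (35.0 to 59.3 FPKM, 0.74, adjusted p = 5.30e-05).

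**Figure D3:**
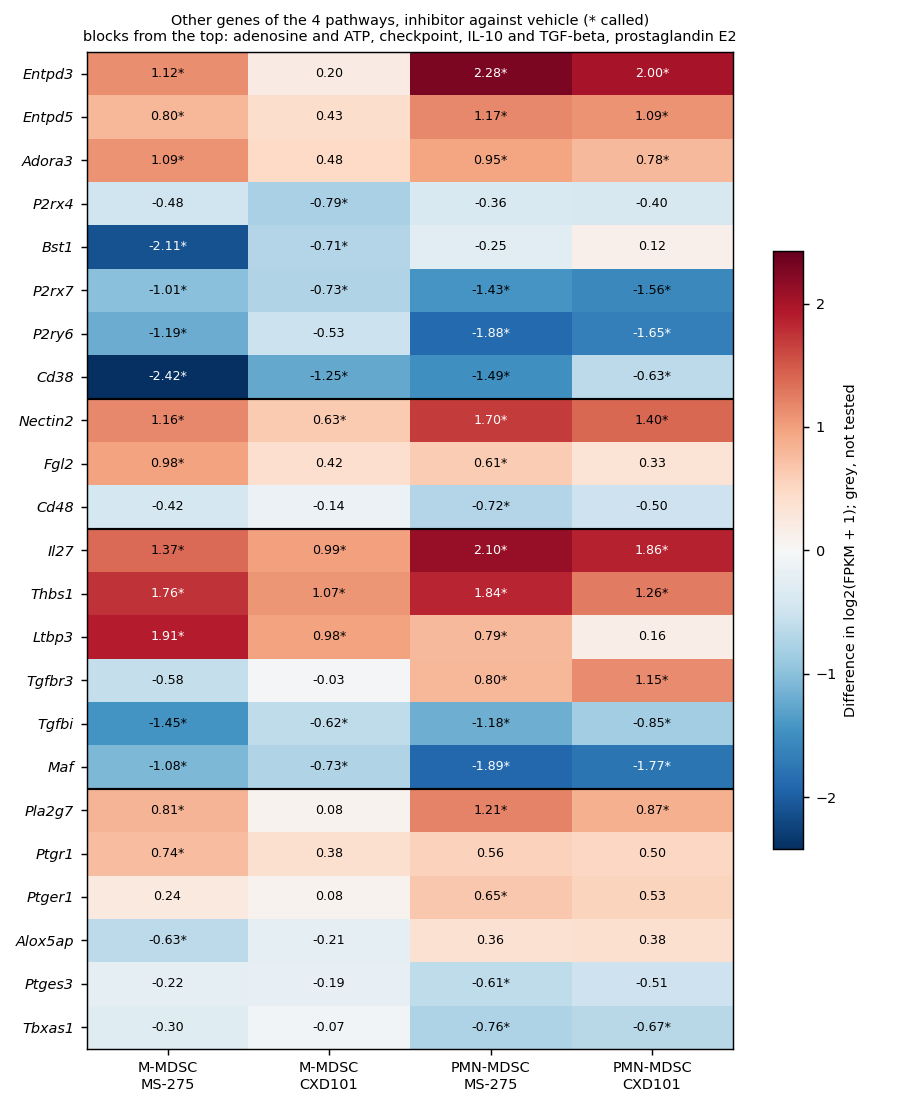
Difference in log2(FPKM + 1) between inhibitor and vehicle, as color and number, for the listed pathway genes that met the naming rule in at least 1 of the 4 comparisons (rows, in blocks by list) across the comparisons (columns). Asterisks mark calls. Nectin2, Il27 and Thbs1 are called higher in all 4 columns, and Cd38, P2rx7, Tgfbi and Maf lower in all 4.

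The genes with the pattern most like a member were ranked by the root-mean-square difference of log2(FPKM + 1), centered on each gene's mean, over the 6 group means, as a description. Nt5e itself varied by 2.32 on that scale, and Cxcr2, encoding a neutrophil chemokine receptor, was closest at 0.32, with 2.81 and 3.11 FPKM in vehicle M-MDSCs, 20.8 and 19.7 with MS-275, and 8.0 and 7.75 with CXD101. Its PMN-MDSC levels were 80.8 and 109, 327 and 294, and 245 and 261 FPKM in the same order. Gm10872 (0.36) and Ifitm6 (0.39) were next. All these points share the same libraries, and the widest steps in each pattern are those between the subsets. Tnf was closest to Cd274 (0.11, own variation 0.88), at 25.6 to 32.9 FPKM in M-MDSCs and 87.3 to 115 FPKM in PMN-MDSCs, followed by Camkk1 (0.11) and Slc39a4 (0.15). Chst15 (0.08), Cd200r2 (0.14) and Siglece (0.18) were closest to Pdcd1lg2, whose own variation was 1.31. For Adora2a, with an own variation of 0.67, they were Gm17644 (0.12), Gm4013 (0.13) and Rasgrp3 (0.14).

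**Figure D4:**
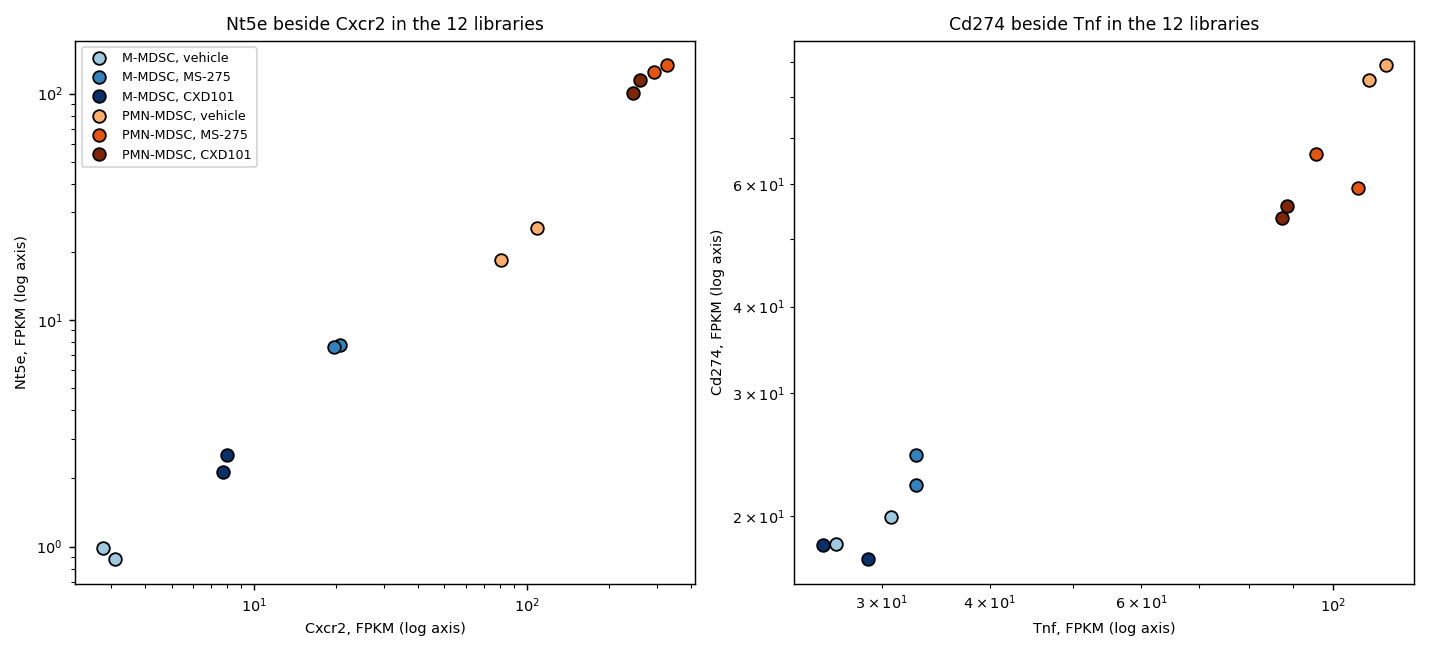
FPKM of Nt5e against Cxcr2 (left) and of Cd274 against Tnf (right) in the 12 libraries, on log axes, with 1 color for each group. In the left panel the points run from vehicle M-MDSCs at 0.882 to 0.986 FPKM of Nt5e to PMN-MDSCs with MS-275 at 124 to 133 FPKM, and in the right panel vehicle PMN-MDSCs hold the highest Cd274 at 84.7 and 88.9 FPKM.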

How the data were processed

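RNA was sequenced from 12 libraries of sorted M-MDSCs and PMN-MDSCs, 2 for each of 6 groups assigned from the submitters' labels. The libraries were stranded poly(A) libraries read single-end for 101 bases. Per the submitters' processing notes, the authors used TopHat2 2.1.1, Bowtie2 2.2.8, SAMtools 0.1.18 and Cuffdiff 2.2.1 with mm10. The annotation and the strand setting of the counting are not given in the sources used here. The authors deposited 1 table of FPKM values per library, already scaled by library size and gene length, and no counts. Depth was therefore estimated from the steps between FPKM values below 0.5 for transcripts of at least 1000 bases in GENCODE M21, and gave 13.9 to 20.9 reads for each FPKM in a 2 kb transcript.

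limma 3.58.1 (R 4.3.3) was fitted to log2(FPKM + 1) with an intensity trend, on the 6 libraries of a subset for inhibitor comparisons and on all 12 for the vehicle subsets and the interactions. A gene entered if it reached 1 FPKM in 2 or more libraries of the fit, and Benjamini-Hochberg adjustment ran over all genes entered, in each of 9 comparisons. The procedure was tested on simulated data with a log2 change of 1 set in 200 genes. Of these, 182 were called in the right direction for MS-275 in M-MDSCs, 171 in PMN-MDSCs and 166 for the MS-275 interaction. The changed genes were drawn from those with a mean log2(FPKM + 1) above 1, so genes below that level were not covered.

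The members and gene lists were chosen with earlier results of these data known, so no list was tested as a set. All members are named. A listed gene could be named, at most 4 per list and comparison, if it was called, had a mean of at least 5 FPKM in the higher group, did not overlap between groups and had the largest absolute differences. The 3 genes most like each member called in an inhibitor-against-vehicle comparison were also named. Vsir, Nectin2 and Lilrb4 were found under older or related symbols, and Ly6g and Trac were not analysed here. The 250 bases before and 50 from the annotated start came from RefSeq (GRCm38.p6), which held a window for 8 of the 10 members. Gene positions are from GENCODE M21 (GRCm38, the assembly of mm10). Replicate libraries correlated across genes with r of 0.995 to 0.996. Tables and figures were made in Python 3.11.15 (pandas 2.3.3, numpy 2.4.6, matplotlib 3.10.9). Alternatives to the pseudocount, filter, scaling, libraries fitted, trend, fold limit and replicate block are given in the closing section.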

Additional observations from a re-analysis of the deposited data

Results flagged for a closer look

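The response of 2 members differed between the subsets by the interaction test over all 12 libraries (limma, Benjamini-Hochberg adjusted p over 11662 genes). The difference between MS-275 and vehicle for Cd274, the PD-L1 gene, was lower in PMN-MDSCs than in M-MDSCs by a log2 difference of -0.74 (SE 0.11, adjusted p = 0.000829). Both PMN-MDSC libraries with MS-275 lay below the vehicle libraries of their subset, and both M-MDSC libraries with MS-275 lay above theirs. This term was called in each fit with a library left out, at -0.82 to -0.66.

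The difference between CXD101 and vehicle for Nt5e, the CD73 gene, was larger in PMN-MDSCs than in the M-MDSC libraries by 1.48 (SE 0.19, adjusted p = 0.000471), with all 4 CXD101 libraries above the vehicle libraries of their subset. It was called in each fit with a library left out, at 1.25 to 1.70, and was 1.07 with a pseudocount of 0.1.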

How the results depend on the processing

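With 2 libraries a group, little spread is left to judge a single gene by, and members below about 2 FPKM rest on few reads. Of the members' results under other settings, 708 kept direction and side of the threshold, 4 passed it anew, 1 no longer passed and 16 turned direction. With 1 library left out the numbers were 592, 8, 7 and 17, the lone library of a group being assumed to vary like the others. Among listed genes that met the naming rule, 686 and 502 kept direction and side, 16 and 26 no longer passed, and 0 turned. Those genes were chosen as called, without overlap and with the largest differences in these data. Their stability is partly set by that choice and is no measure beside the members.

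The count of called members changed with the threshold. With a fold change above 2 it was 1 in place of 2 for MS-275 against vehicle in M-MDSCs, 0 in place of 1 for CXD101, 1 in place of 2 between the inhibitors, 1 in place of 2 for each inhibitor in PMN-MDSCs, and 0 in place of 1 for the MS-275 interaction. With no fold limit it was 6, 2, 5 and 5 for the 4 inhibitor comparisons in that order, 3 for the MS-275 and 2 for the CXD101 interaction. With an FPKM of at least 5 it was 1 for MS-275 in M-MDSCs, between the inhibitors in M-MDSCs, and for MS-275 in PMN-MDSCs, because fewer genes were tested. It was 1 between the inhibitors in M-MDSCs after quantile normalization, 2 for the MS-275 interaction with a pseudocount of 0.1, quantile normalization or a sum without S100a8 and S100a9, and 2 for the CXD101 interaction with that last sum. With 1 library left out it ranged from 1 to 2 between the inhibitors in M-MDSCs, 1 to 3 for the MS-275 interaction (3 without the first M-MDSC vehicle library) and 1 to 2 for the CXD101 interaction. The cause was not tested beyond what each setting changes by construction.

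The results that turned direction had main values near 0 apart from the Nt5e MS-275 interaction, which went from 0.35 to -0.35 with a pseudocount of 0.1. Adora2a with MS-275 in M-MDSCs was 0.0066 with that pseudocount, 0.016 with median-of-ratios scaling and 0.031 with a sum without S100a8 and S100a9 (-0.23 to 0.20 with a library left out). Entpd1 between the inhibitors in M-MDSCs was 0.010 and 0.029 under the latter pair (-0.11 to 0.076), and with CXD101 in PMN-MDSCs -0.073 to 0.13 with a library left out. Lgals9 between the inhibitors in PMN-MDSCs was -0.027 after quantile normalization and -0.023 without S100a8 and S100a9 (-0.068 to 0.075). The Pdcd1lg2 CXD101 interaction was -0.18 with a pseudocount of 0.1 (-0.037 to 0.17).

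Tgfb1 with MS-275 in M-MDSCs was 0.087 after quantile normalization and 0.013 without S100a8 and S100a9 (-0.13 to 0.0095 with a library left out), and between the inhibitors -0.051 to 0.22. With MS-275 in PMN-MDSCs Tgfb1 was 0.024 after quantile normalization (-0.080 to 0.026), and between vehicle subsets -0.059 (-0.016 to 0.090). Its MS-275 interaction was -0.064 and -0.090 under those settings (-0.036 to 0.099), and its CXD101 interaction 0.0022 with median-of-ratios scaling (-0.14 to 0.13).

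With the replicate number as a replicate block, the count of called members was 2, 1 and 2 for MS-275, CXD101 and their difference in M-MDSCs, 2, 2 and 0 in PMN-MDSCs, 6 for the vehicle subsets and 1 for either interaction, as without it. Over all genes, 1119 were higher and 814 lower for MS-275 in M-MDSCs with the block, against 1123 and 811 without. The labels do not say that the numbers pair libraries, and the deviations of same-numbered libraries correlated with r of -0.13 to 0.18.

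The called genes of the lists varied more. For adenosine and ATP handling the total was 13 with MS-275 in M-MDSCs and 8 with an FPKM of at least 5. For the IL-10 and TGF-β list it was 9 and 4, for prostaglandin E2 6 and 3 and for checkpoint genes 5 and 2 under the same change. For IL-10 and TGF-β with CXD101 in M-MDSCs it was 7 and ranged from 3 to 7 (3 without the first vehicle library, 4 without the second CXD101 library), and for checkpoint genes with MS-275 in PMN-MDSCs it was 3 and ranged from 2 to 5 (5 without the second vehicle library or with a pseudocount of 0.1). For prostaglandin E2 it ranged from 3 to 7 with MS-275 and 2 to 4 with CXD101 in PMN-MDSCs, and from 0 to 3 with CXD101 in M-MDSCs, and for checkpoint genes from 2 to 6 with MS-275 and 0 to 2 with CXD101 in M-MDSCs and 1 to 3 with CXD101 in PMN-MDSCs.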

Other observations

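Between vehicle subsets, 17.2% of all genes were called higher in PMN-MDSCs and 16.8% lower, and the listed genes of the 4 pathways are given as counts beside that, with no test of the lists. Of the adenosine and ATP handling genes 9 of 24 were higher and 2 lower, and of the checkpoint genes 11 of 23 and 2. For the IL-10 and TGF-β genes it was 14 of 27 and 1, and for the prostaglandin E2 list 7 of 17 and 5. Bst1 had a mean of 261 FPKM in PMN-MDSCs and 30.7 in M-MDSCs (log2 difference 3.05, adjusted p = 2.17e-09, limma). Il1rn, encoding the interleukin-1 receptor antagonist, was at 504 against 28.3 FPKM (4.10, adjusted p = 1.41e-10), and Pla2g7 at 61.4 against 5.66 (3.23, adjusted p = 2.05e-08).

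Several checkpoint genes were also called. Lilrb4, encoding an immunoglobulin-like inhibitory receptor, was at 1162 FPKM in PMN-MDSCs and 426 in M-MDSCs (1.44, adjusted p = 1.31e-08). Vsir, encoding VISTA, was at 204 against 88.7 FPKM (1.19, adjusted p = 1.29e-08), and Havcr2, encoding the galectin-9 receptor TIM-3, at 6.75 against 2.21 (1.28, adjusted p = 5.60e-05). Lgals1, encoding galectin-1, differed the other way, at 336 against 800 FPKM (-1.25, adjusted p = 4.61e-07).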
